A study of Homo sapiens with 12 samples.

Results

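The genes described here are the nuclear genes whose products copy, transcribe or protect the DNA and RNA of mitochondria. They are TFAM, TFB1M, TFB2M, POLRMT, TEFM, POLG, POLG2, SSBP1, LRPPRC and TOP1MT, a set chosen by name and matched through its Ensembl identifiers to 10 of the 63152 genes in the count table. Their mRNA was measured by sequencing of poly-A selected RNA in 12 cultures of a human cell line exposed to acriflavine, an antiseptic of acridine dyes. Acriflavine slides between DNA base pairs and is known as an inhibitor of the dimer that forms hypoxia-inducible factor 1. The 3 groups were control, 2.5 µM acriflavine and 5 µM acriflavine, each for 24 h and each with 4 libraries that the labels call biological replicates. The controls are listed as having no treatment in one label, while the treatment protocol gives them the vehicle DMSO. The cell line label is HepG2, a line from a human hepatoblastoma. Per the sample descriptions every culture was of HepG2S1, a single derivative that had been selected over several months in rising doses of the kinase inhibitor sorafenib, so the controls carry that selection as well and the results concern 1 derived line.

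All 10 genes passed the filter on low counts, with 78 to 6178 reads per gene and library out of library totals of 10733567 to 15116842. In the controls 11 of 11 hepatocyte markers were below 1 CPM (read counts scaled to the size of the library), and ALB, AFP, TF and FOXA2 had 0 counts there, so the label was not borne out by its defining markers. Their summed level was 0.953 to 1.95 CPM in the controls, 1.06 to 2.54 CPM at 2.5 µM and 9.44 to 12.3 CPM at 5 µM. The summed level of 5 cholangiocyte markers was 3622 to 4074 CPM in the controls, 3525 to 3991 CPM at 2.5 µM and 1486 to 1783 CPM at 5 µM. Nearly all of it was KRT7, with a mean of 3612 CPM in the controls and 1580 CPM at 5 µM. KRT19 was also lower at 5 µM, while EPCAM (3.57 and 5.88 CPM), SOX9 (1.73 and 15.8 CPM) and CFTR (0.0395 and 3.93 CPM) were higher there than in the controls. The sum over 5 endothelial markers was 0.169 to 0.537 CPM in the controls and 7.13 to 8.69 CPM at 5 µM. That of 5 blood markers was 0.4475 to 1.1 CPM in the controls and 3.56 to 4.54 CPM at 5 µM. The sum over 6 fibroblast markers lay between 548 and 769 CPM in all libraries. Most of the fibroblast sum was DCN (563 CPM in the controls and 450 at 5 µM) and LUM (119 and 82.1 CPM). COL1A2 and COL3A1 had 0 counts in the controls, and COL1A1 (22.55 and 30.9 CPM) and PDGFRB (4.51 and 16.4 CPM) were higher at 5 µM. The part of these shifts in the results below was not tested.

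Human mitochondria keep a small circular genome that encodes subunits of the respiratory chain together with the rRNAs and tRNAs needed to make them, and every protein that maintains or reads this genome is imported from the cytosol. TFAM packs the DNA into nucleoids and bends it at the promoters, TFB2M opens the promoter for the RNA polymerase POLRMT, and TEFM keeps the polymerase on its template. POLRMT transcripts also prime replication, which is carried out by DNA polymerase gamma (POLG with its accessory subunit POLG2) on single strands coated by SSBP1, while TOP1MT removes supercoils and LRPPRC stabilises the finished mRNAs. The nuclear respiratory factor NRF1 and the ETS-family factor GABP are textbook regulators of several of these genes.

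Of the 10 genes, 9 had promoter windows in the RefSeq table (build GRCh38.p14), 11 windows in all. The 250 bases before the start are shown for TFAM, TFB1M, TFB2M, POLRMT and POLG2, since these windows hold letters of the kind NRF1 binds while the first 3 genes and the last 2 moved in opposite directions with the drug. They run 5′ to 3′ on the strand of the gene, and capitals mark matches on either strand to CGCNTGCG (NRF1-type letters, whose matches can overlap) and to CGGAAG (the ETS core).
TFAM: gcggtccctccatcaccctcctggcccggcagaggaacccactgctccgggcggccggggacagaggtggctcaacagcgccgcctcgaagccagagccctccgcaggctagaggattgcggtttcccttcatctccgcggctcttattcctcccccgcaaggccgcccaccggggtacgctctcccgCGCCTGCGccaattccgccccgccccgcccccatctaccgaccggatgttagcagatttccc
TFB1M: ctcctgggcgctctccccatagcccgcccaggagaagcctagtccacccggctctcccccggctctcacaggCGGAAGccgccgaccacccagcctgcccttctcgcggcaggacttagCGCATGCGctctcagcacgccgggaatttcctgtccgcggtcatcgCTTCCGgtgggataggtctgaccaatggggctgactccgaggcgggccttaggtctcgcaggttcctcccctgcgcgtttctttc
TFB2M: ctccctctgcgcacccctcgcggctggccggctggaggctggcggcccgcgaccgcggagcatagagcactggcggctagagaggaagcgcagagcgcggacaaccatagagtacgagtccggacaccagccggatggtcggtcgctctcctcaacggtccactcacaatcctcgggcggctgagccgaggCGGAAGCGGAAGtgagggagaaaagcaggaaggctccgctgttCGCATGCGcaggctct
POLRMT: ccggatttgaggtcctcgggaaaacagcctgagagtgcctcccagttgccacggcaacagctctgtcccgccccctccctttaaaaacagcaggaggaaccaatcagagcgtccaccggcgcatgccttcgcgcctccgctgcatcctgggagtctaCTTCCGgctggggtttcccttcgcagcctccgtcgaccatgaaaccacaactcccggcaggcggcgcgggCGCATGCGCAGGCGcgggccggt
POLG2: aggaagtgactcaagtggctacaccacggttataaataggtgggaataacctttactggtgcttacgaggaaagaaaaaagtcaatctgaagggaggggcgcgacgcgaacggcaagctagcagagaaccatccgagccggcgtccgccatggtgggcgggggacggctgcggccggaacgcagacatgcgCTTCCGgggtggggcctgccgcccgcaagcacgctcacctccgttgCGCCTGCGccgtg
The windows lie at chr10:58385160-58385409 on the plus strand for TFAM, and on the minus strand at chr6:155314485-155314734 for TFB1M, chr1:246566262-246566511 for TFB2M, chr19:633538-633787 for POLRMT and chr17:64497055-64497304 for POLG2.

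TFAM held a single match, CGCCTGCG, 55 to 62 bases before the start, and POLG2 held the same letters at 6 to 13 bases and an ETS core at 54 to 59 bases. TFB1M held CGCATGCG at 124 to 131 bases and an ETS core on each side of it, at 80 to 85 and 173 to 178 bases. TFB2M held CGCATGCG at 9 to 16 bases and a pair of adjoining ETS cores at 48 to 59 bases. POLRMT had overlapping matches, CGCATGCG and CGCAGGCG, at 10 to 23 bases and an ETS core at 88 to 93 bases. The windows of POLG and TEFM held none of these letters, and that of LRPPRC and 1 of the 3 of SSBP1 held an ETS core only. Of 35116 windows of the same length, 8.69% held CGCNTGCG and 16.5% held CGGAAG. Genes that rose and genes that fell shared these letters. The letters were chosen with the sequences in view, and a match says nothing of binding.

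At 5 µM the machinery moved in both directions. TFAM, TFB1M, TFB2M and TEFM rose, by 1.14-fold to 1.49-fold, and POLRMT, POLG, POLG2, SSBP1, LRPPRC and TOP1MT fell, by 1.56-fold to 4.35-fold. All 10 changes passed an adjusted p of 0.05 in edgeR's quasi-likelihood test, in which log2 fold changes are given ± SE. Levels are CPM scaled by edgeR's TMM factors, and group levels are mean ± SD of 4 libraries. Across all genes tested 78.2% were called in this comparison, 38.7% higher and 39.4% lower, so a share of called genes this high was the rule and not a trait of the set. The median log2 fold change of the 10 genes was -0.69, and that of all genes -0.01. A fall of at least 2-fold was called for POLRMT and TOP1MT, 2 of 10 genes, beside 10.8% of all genes. POLRMT lay at this limit, and its log2 fold change missed it in 7 of 22 alternative fits, among them those without control replicate 3 (-0.9956), without 5 µM replicate 4 (-0.998) and with library size scaling (-0.8817), which left TOP1MT alone. The values are shares of each library's RNA, so that less mRNA per cell and fewer cells that carry it cannot be told apart.

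At 2.5 µM the same controls gave 7 calls. TFAM and TEFM were higher, POLRMT, POLG, SSBP1, LRPPRC and TOP1MT were lower, and TFB1M, TFB2M and POLG2 did not pass the test. The share called over all genes was 59.1%, 30.7% higher and 28.5% lower. The median log2 fold change was -0.17 for the 10 genes and 0.02 for all genes. The 4 drug and 4 control values did not overlap for 6 of the 10 genes at 2.5 µM and for 9 of 10 at 5 µM, beside 50.5% and 70.8% of all genes. Summed over the 10 genes, the level was 933 ± 27.01 CPM in the controls, 828 ± 22.9 CPM at 2.5 µM and 603 ± 12.3 CPM at 5 µM (n = 4 each). LRPPRC alone gave 419 ± 31.2, 372 ± 21.4 and 223 ± 7.52 CPM of these sums, while 4 of the 10 genes were higher at 5 µM. Scaling by library totals alone, in place of edgeR's TMM factors, moved the median of all genes at 5 µM from -0.015 to 0.12 and turned the direction against control of none of the 10.

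**Figure D1:**
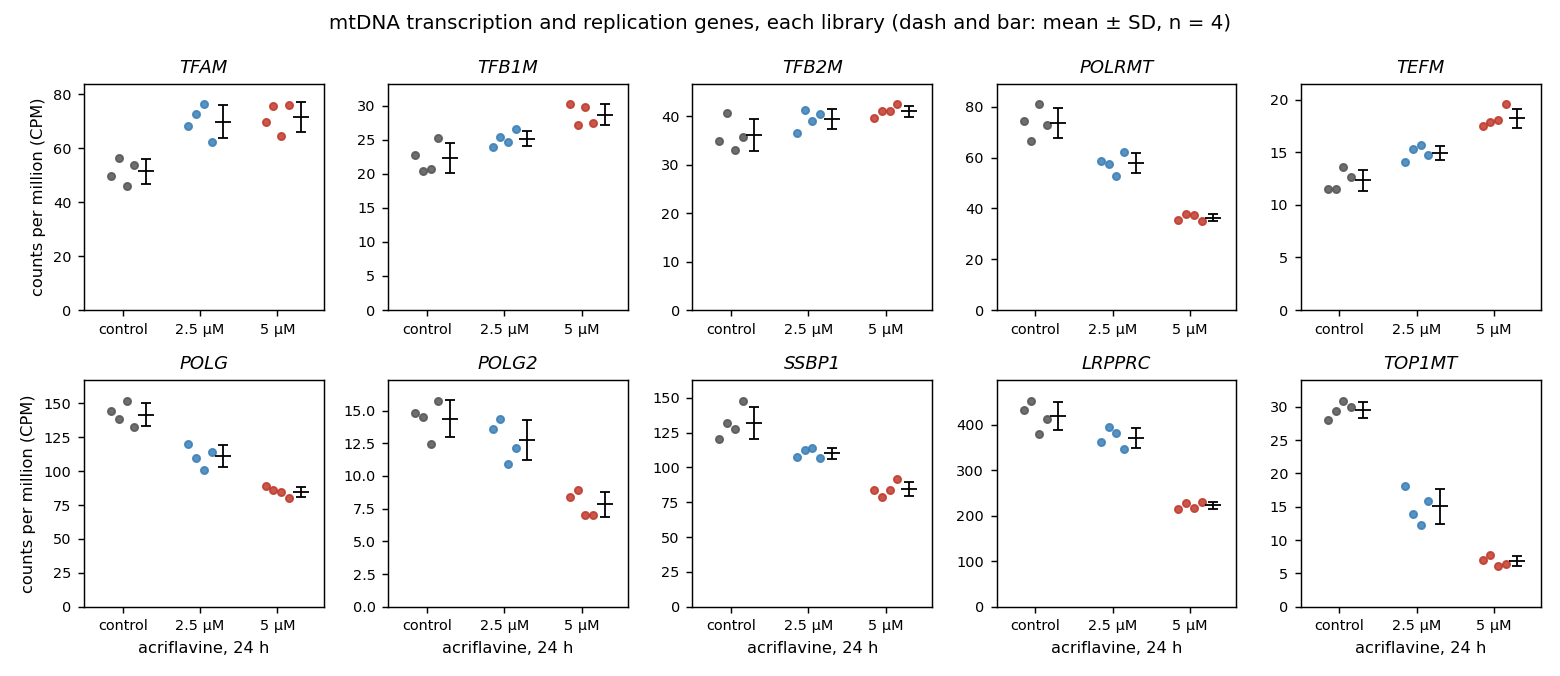
Level of each of the 10 genes in CPM (linear axes from 0) in the 4 control, 4 2.5 µM and 4 5 µM libraries, with the mean ± SD of each group beside the points. POLRMT, POLG, SSBP1 and TOP1MT step down at each dose without overlap, TEFM steps up, and TFAM stands as high at 2.5 µM as at 5 µM.

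TFAM (ENSG00000108064, chromosome 10) was the transcription gene that reached its full rise at the lower dose. Its level was 49.7, 56.5, 46.0 and 53.98 CPM in the controls, 68.4, 72.7, 76.4 and 62.3 at 2.5 µM and 69.9, 75.8, 64.7 and 76.2 at 5 µM. Every treated library lay above every control, and the treated groups overlapped each other. The rise was 1.35-fold at 2.5 µM (log2 0.44 ± 0.07, adjusted p = 2.27e-06) and 1.39-fold at 5 µM (log2 0.47 ± 0.07, adjusted p = 2.57e-07). Between the doses the log2 difference was 0.04 ± 0.07 (adjusted p = 0.644). No other annotated gene overlaps TFAM, and its pseudogene TFAMP1 was counted at 1.90 ± 0.589, 2.38 ± 0.633 and 2.92 ± 0.523 CPM in the 3 groups.

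The paralogs TFB1M and TFB2M descend from rRNA methyltransferases. TFB1M (ENSG00000029639, chromosome 6) methylates the small mitochondrial rRNA, and its level was 22.8, 20.5, 20.8 and 25.2 CPM in the controls, 23.9, 25.5, 24.7 and 26.6 at 2.5 µM and 30.2, 27.1, 29.7 and 27.5 at 5 µM. The 5 µM values all lay above those of the other groups, and those at 2.5 µM overlapped the controls. TFB1M rose 1.28-fold at 5 µM (log2 0.36 ± 0.08, adjusted p = 9.23e-05). At 2.5 µM its log2 difference was 0.18 ± 0.08 (adjusted p = 0.052), which passed the threshold without control replicate 4 (log2 0.24, adjusted p = 0.0122) or without 2.5 µM replicate 1 (log2 0.20, adjusted p = 0.0492).

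TFB2M (ENSG00000162851, chromosome 1) is the promoter-melting factor. Its level was 34.9, 40.7, 32.9 and 35.7 CPM in the controls, 36.6, 41.3, 38.9 and 40.5 at 2.5 µM and 39.7, 40.97, 40.95 and 42.4 at 5 µM. Control replicate 2 lay within the range of the treated libraries, and the groups overlapped in every comparison. The rise at 5 µM was the smallest call among the 10, 1.14-fold (log2 0.18 ± 0.07, adjusted p = 0.0151). It was lost without control replicate 1 (log2 0.16, adjusted p = 0.0527) or control replicate 3 (log2 0.12, adjusted p = 0.123). At 2.5 µM the log2 difference was 0.12 ± 0.07 (adjusted p = 0.122), and without control replicate 2 it was called (log2 0.19, adjusted p = 0.025). The count ratio of TFB1M to TFB2M was 0.623 ± 0.0863, 0.641 ± 0.0192 and 0.700 ± 0.0536 in the 3 groups, with overlapping ranges.

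POLRMT (ENSG00000099821, chromosome 19), the polymerase itself, fell while these factors did not. Of the 5 windows shown above, that of POLRMT was the 1 with overlapping NRF1-type matches. Of these matches, CGCATGCG was also held by TFB1M and TFB2M, which rose. A link between these matches and the fall of POLRMT was not tested. Its level was 74.5, 66.6, 81.0 and 72.9 CPM in the controls, 58.7, 57.6, 52.6 and 62.03 at 2.5 µM and 35.4, 37.96, 37.4 and 34.9 at 5 µM. The 3 groups were fully separate in dose order. POLRMT fell by 0.35 ± 0.06 on the log2 scale at 2.5 µM (adjusted p = 1.11e-05) and by 1.02 ± 0.07 at 5 µM (adjusted p = 7.73e-16), which left it 2.03-fold below control. A pseudogene, POLRMTP1, shares 10.56% of the 75-base windows of POLRMT transcripts. Its counts were 0.678 ± 0.00648, 0.685 ± 0.0238 and 0.688 ± 0.0785 times those of POLRMT in the 3 groups. How reads that fit both copies were counted is not given in the sources used here, so the level of POLRMT is uncertain, while POLRMTP1 itself had a log2 fold change of -1.0 ± 0.08 at 5 µM.

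TEFM (ENSG00000172171, chromosome 17), the elongation factor, was the gene with the largest rise. Its level was 11.5, 11.5, 13.6 and 12.7 CPM in the controls, 14.1, 15.3, 15.6 and 14.7 at 2.5 µM and 17.5, 17.9, 18.02 and 19.6 at 5 µM. Every step separated the libraries without overlap. TEFM rose 1.22-fold at 2.5 µM (log2 0.28 ± 0.09, adjusted p = 0.00785) and 1.49-fold at 5 µM (log2 0.57 ± 0.09, adjusted p = 5.09e-07). With the promoter factor higher and the polymerase lower, the count ratio of TFAM to POLRMT was 0.706 ± 0.119 in the controls, 1.22 ± 0.187 at 2.5 µM and 1.97 ± 0.185 at 5 µM. The single libraries ran from 0.568 to 0.849, 1.004 to 1.45 and 1.73 to 2.18, so the 3 groups did not overlap. This ratio is of raw counts of genes that differ in length and is read only across groups.

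**Figure D2:**
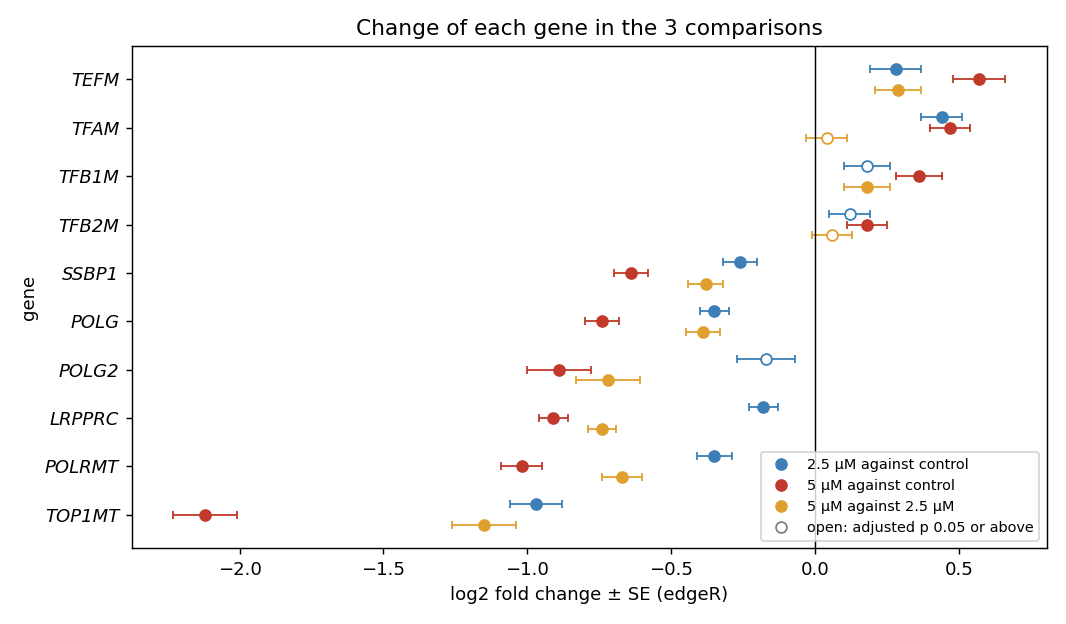
Log2 fold change ± SE of the 10 genes for 2.5 µM against control (blue), 5 µM against control (red) and 5 µM against 2.5 µM (yellow), with open points where the adjusted p was 0.05 or above. The 4 genes right of 0 are TEFM, TFAM, TFB1M and TFB2M, and TOP1MT stands farthest left at -2.12.

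The replication genes of the set are POLG, POLG2, SSBP1 and TOP1MT. POLG (ENSG00000140521, chromosome 15) encodes the catalytic subunit of the replicative DNA polymerase of mitochondria. Its level was 144, 138, 152 and 133 CPM in the controls, 120, 110, 101 and 114 at 2.5 µM and 89.01, 86.3, 84.4 and 80.1 at 5 µM. The 3 groups did not overlap. POLG fell by 0.35 ± 0.05 on the log2 scale at 2.5 µM (adjusted p = 1.22e-06) and by 0.74 ± 0.06 at 5 µM (adjusted p = 4.31e-14). In the annotation POLG overlaps FANCI on the opposite strand, and the strand setting of the counting is not given, so reads of the 2 genes cannot be told apart where they overlap. FANCI, a DNA repair gene, was at 217 ± 3.57, 213 ± 5.95 and 97.6 ± 11.7 CPM in the 3 groups, and its part in the fall of POLG at 5 µM was not tested. The log2 difference of FANCI was -0.03 ± 0.05 at 2.5 µM (adjusted p = 0.695) and -1.16 ± 0.06 at 5 µM (adjusted p = 1.17e-18).

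POLG2 (ENSG00000256525, chromosome 17), the processivity subunit of the same enzyme, was counted at 14.8, 14.5, 12.4 and 15.7 CPM in the controls, 13.6, 14.4, 10.9 and 12.2 at 2.5 µM and 8.38, 8.93, 7.03 and 6.999 at 5 µM. The 2.5 µM values overlapped the controls, and the 5 µM values lay below both. POLG2 fell by 0.89 ± 0.11 on the log2 scale at 5 µM (adjusted p = 9.37e-09). At 2.5 µM its log2 difference was -0.17 ± 0.10 (adjusted p = 0.149), which was called without control replicate 3 (log2 -0.25, adjusted p = 0.0406). The count ratio of POLG to POLG2 was 9.98 ± 1.59, 8.77 ± 0.795 and 10.9 ± 1.02 in the 3 groups. The control range of this ratio overlapped that of each dose, and the doses did not overlap each other. In the annotation POLG2 overlaps the pseudogene ATP5MFP4 on the opposite strand, which had 500 reads over the 12 libraries. As for POLG, reads cannot be told apart where the genes overlap. TFB1M and TEFM likewise overlap TIAM2 (374 reads) and ADAP2 (144 reads) on the opposite strand.

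SSBP1 (ENSG00000106028, chromosome 7), which coats single-stranded mitochondrial DNA, was at 121, 132, 128 and 148 CPM in the controls, 107, 112, 114 and 107 at 2.5 µM and 84.02, 78.8, 83.7 and 91.6 at 5 µM. The groups were separate in dose order. SSBP1 fell by 0.26 ± 0.06 on the log2 scale at 2.5 µM (adjusted p = 0.000129) and by 0.64 ± 0.06 at 5 µM (adjusted p = 3.38e-12), the smallest of the 6 decreases.

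TOP1MT (ENSG00000184428, chromosome 8), the type I topoisomerase of mitochondria, showed the deepest decrease of the 10. Its level was 27.97, 29.4, 30.9 and 29.95 CPM in the controls, 18.2, 13.9, 12.3 and 15.9 at 2.5 µM and 6.95, 7.82, 6.08 and 6.44 at 5 µM. The highest treated library was well below the lowest control, and the doses did not overlap. TOP1MT was 1.96-fold lower at 2.5 µM (log2 -0.97 ± 0.09, adjusted p = 7.13e-11), 4.35-fold lower at 5 µM (log2 -2.12 ± 0.11, adjusted p = 9.07e-19) and 2.22-fold lower at 5 µM than at 2.5 µM (log2 -1.15 ± 0.11, adjusted p = 8.93e-11).

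LRPPRC (ENSG00000138095, chromosome 2) binds mitochondrial mRNAs together with SLIRP and keeps them polyadenylated. Its level was 433, 453, 380 and 412 CPM in the controls, 362, 395, 382 and 347 at 2.5 µM and 216, 228, 217 and 231 at 5 µM. Control replicate 3 lay among the 2.5 µM libraries, and all 5 µM libraries were far below. LRPPRC fell by 0.18 ± 0.05 on the log2 scale at 2.5 µM (adjusted p = 0.00287) and by 0.91 ± 0.05 at 5 µM (adjusted p = 1.61e-17). Its partner SLIRP, named after its values were seen, was at 75.1 ± 1.64, 72.4 ± 2.58 and 64.6 ± 3.08 CPM in the 3 groups and fell by 0.22 ± 0.05 on the log2 scale at 5 µM (adjusted p = 0.00047).

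Between the doses 6 of the 10 genes were lower at 5 µM than at 2.5 µM and TFB1M and TEFM were higher, while TFAM and TFB2M did not pass the test. Over all genes 68.4% were called in this comparison, 33.6% higher and 34.8% lower. The median log2 difference was -0.38 for the 10 genes and -0.01 for all genes. The values of the doses did not overlap for 8 of the 10, beside 62.1% of all genes. LRPPRC had the smallest p among them (log2 -0.74 ± 0.05, adjusted p = 1.48e-14), ahead of POLRMT (log2 -0.67 ± 0.07, adjusted p = 8.84e-11) and of TOP1MT, given above. POLG2 was lower by log2 -0.72 ± 0.11 (adjusted p = 9.94e-07), POLG with -0.39 ± 0.06 (adjusted p = 1.88e-07) and SSBP1 with -0.38 ± 0.06 (adjusted p = 5.63e-07). TEFM was higher by log2 0.29 ± 0.08 (adjusted p = 0.0028). The call of TFB1M (log2 0.18 ± 0.08, adjusted p = 0.0306) was lost without 2.5 µM replicate 1 (adjusted p = 0.104), 2 (adjusted p = 0.0565) or 3 (adjusted p = 0.0719), and without 5 µM replicate 1 (adjusted p = 0.0786) or 3 (adjusted p = 0.0661), and with no filter on low counts (adjusted p = 0.0762).

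Whether the second 2.5 µM of drug changed a gene by another amount than the first was tested as the difference of the 2 steps on the log2 scale. This difference was called negative for 4 of the 10 genes and called positive for 0, beside 26.8% and 21.8% of all genes. A positive difference was found for 0 of the 10 at an unadjusted p under 0.05 and for 0 by DESeq2. For LRPPRC it was -0.56 ± 0.09 (adjusted p = 1.69e-06), since most of its fall came with the second step. POLG2 had a difference of -0.55 ± 0.18 (adjusted p = 0.0139), which was not called without 2.5 µM replicate 1 (-0.49, adjusted p = 0.0532) or replicate 2 (-0.43, adjusted p = 0.0873). POLRMT had one of -0.32 ± 0.11 (adjusted p = 0.0163), not called without 2.5 µM replicate 4 (-0.23, adjusted p = 0.119) or with DESeq2 (adjusted p = 0.0538). For TFAM the difference of -0.40 ± 0.12 (adjusted p = 0.00505) reflected a rise with the first step and none called with the second. The 6 other genes did not pass, with differences of -0.18 for TOP1MT, -0.11 for SSBP1, -0.06 for TFB2M, -0.04 for POLG, and 0.01 for both TFB1M and TEFM.

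Levels between genes were compared as CPM per kilobase of exon, with exon lengths from GENCODE 29. In the controls LRPPRC was highest at 42.98 ± 3.19, ahead of SSBP1 at 26.5 ± 2.29 and POLG at 23.7 ± 1.37, whose ranges overlapped. TFB2M followed at 19.5 ± 1.78 and POLRMT at 14.4 ± 1.16. TFAM at 9.20 ± 0.8286 and TFB1M at 8.15 ± 0.805 overlapped each other. TOP1MT at 4.59 ± 0.189, POLG2 at 4.25 ± 0.412 and TEFM at 3.82 ± 0.318 stood lowest, and each overlapped its neighbour. At 5 µM the order was different. TFB2M at 22.2 ± 0.616 had drawn level with LRPPRC at 22.8 ± 0.770, TFAM at 12.8 ± 0.975 overlapped POLG at 14.2 ± 0.630 and exceeded POLRMT at 7.11 ± 0.289, and TOP1MT was last at 1.06 ± 0.117. These levels depend on which exons are counted. With the longest transcript as the length, LRPPRC at 35.2 and SSBP1 at 32.3 stayed above TFB2M at 22.2 at 5 µM, while TFAM at 13.2 still exceeded POLRMT at 9.49. In the controls SSBP1 was then at 50.4 and TFAM moved from the sixth place to the eighth, with TFB1M and TOP1MT above it.

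**Figure D3:**
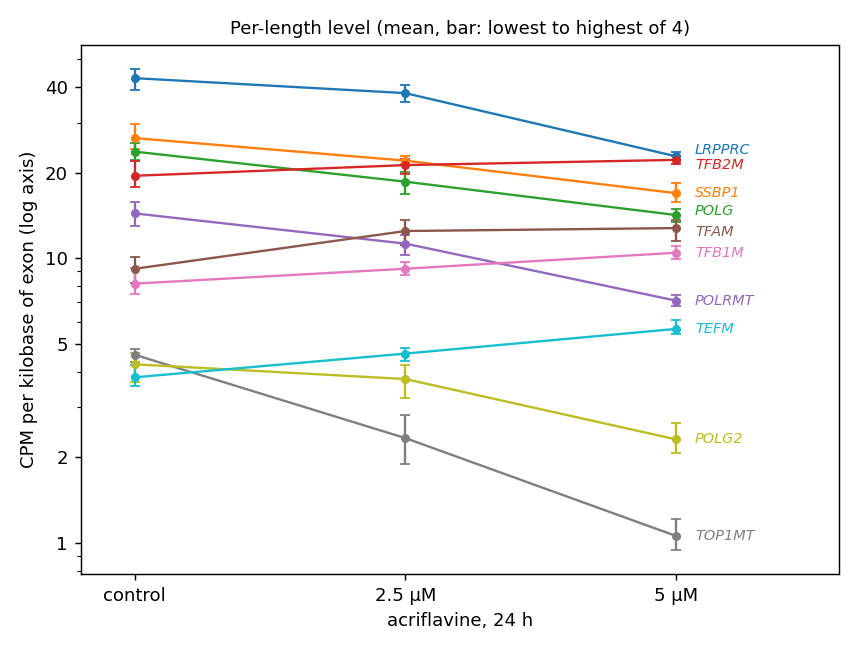
Mean level of the 10 genes in CPM per kilobase of exon (log axis) in the 3 groups, with bars from the lowest to the highest of 4 libraries. With this length the lines of LRPPRC and TFB2M meet at 5 µM (with the longest transcript they stay apart, at 35.2 and 22.2), that of TFAM crosses above POLRMT, and TOP1MT drops from 4.59 to 1.06.

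The machinery was set beside 8 lists of related genes, 72 genes in all, which were all tested. Genes named in these lists are the 3 with the smallest p at 5 µM and every upstream regulator. Any others were named after their values were seen. The shares called and the medians of all genes are those given above. Of 10 further replication and nucleoid genes, 7 fell and 3 rose at 5 µM, with a median log2 fold change of -0.88. ATAD3A, a membrane ATPase that anchors nucleoids, was at 108 ± 11.6, 75.3 ± 3.17 and 44.3 ± 2.01 CPM in the 3 groups and fell by 1.28 ± 0.06 on the log2 scale (adjusted p = 1.01e-18). DNA2, a nuclease-helicase that trims flaps, was at 24.5 ± 1.04, 18.3 ± 1.46 and 7.43 ± 0.968 CPM and fell by 1.73 ± 0.10 (adjusted p = 1.95e-17). LIG3, the DNA ligase of mitochondria, was at 89.4 ± 5.18, 66.1 ± 1.09 and 46.9 ± 2.40 CPM and fell by 0.93 ± 0.06 (adjusted p = 1.64e-16). The 3 that rose were TWNK, the replicative helicase (log2 0.47 ± 0.06, adjusted p = 5.52e-09), MGME1, an exonuclease (log2 0.34 ± 0.06, adjusted p = 1.98e-06), and TOP3A, a topoisomerase (log2 0.22 ± 0.06, adjusted p = 0.000688). At 2.5 µM 7 of the list were lower and TWNK was higher, with a median of -0.43.

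Genes that supply nucleotides to mitochondria were split, with 4 higher, 5 lower and 2 not called of 11 at 5 µM (median -0.19). RRM2B, the ribonucleotide reductase subunit that p53 induces, was at 15.6 ± 2.95, 36.8 ± 4.48 and 68.03 ± 4.87 CPM in the 3 groups and rose 4.34-fold at 5 µM (log2 2.12 ± 0.10, adjusted p = 6.25e-15). MPV17, an inner membrane protein needed for mitochondrial nucleotide pools, rose from 56.4 ± 5.03 to 84.7 ± 2.59 CPM (log2 0.59 ± 0.06, adjusted p = 1.23e-10). SLC25A4, an ADP/ATP carrier, rose from 32.3 ± 2.29 to 43.9 ± 3.05 CPM (log2 0.45 ± 0.07, adjusted p = 4.77e-07). The other increase was TK2 at log2 0.31, and the 5 decreases were TYMP at -0.60, SLC25A33 at -0.48, SAMHD1 at -0.46, SUCLA2 at -0.23 and DGUOK at -0.19. TYMP was near the floor, at 1.62 ± 0.354 CPM in the controls and 1.04 ± 0.2785 at 5 µM. Its libraries overlapped (log2 SE 0.26, adjusted p = 0.0333). At 2.5 µM 3 genes were higher (RRM2B, MPV17 and DGUOK) and 2 lower (TYMP and SAMHD1), with a median of 0.03. DESeq2 called 4 of the list lower at 5 µM and 1 lower at 2.5 µM.

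The MTERF family and MTRES1, which act on termination and on the polymerase, gave 2 increases, 2 decreases and 1 gene not called at 5 µM, and 0 calls of 5 at 2.5 µM. At 2.5 µM 1 had an unadjusted p under 0.05, and DESeq2 called 0. MTERF2 fell by 0.94 ± 0.11 on the log2 scale at 5 µM (adjusted p = 8.13e-10) and MTERF3 by 0.46 ± 0.09 (adjusted p = 4.59e-05). MTERF4 rose by log2 0.38 ± 0.07 (adjusted p = 2.04e-05), and MTERF1 by 0.57 ± 0.13 (adjusted p = 0.000141). Of the 5, MTERF2 was called at 2.5 µM without control replicate 3 (log2 -0.25, adjusted p = 0.0379), 2.5 µM replicate 3 (adjusted p = 0.0432) or 5 µM replicate 3 (adjusted p = 0.0451), and with the stricter filter (adjusted p = 0.0491).

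Of 19 genes that process or degrade mitochondrial RNA, 6 rose, 9 fell and 4 did not pass at 5 µM (median -0.15), and 7 rose, 3 fell and 9 did not pass at 2.5 µM (median 0.12). FASTKD2, an RNA granule protein, went from 50.1 ± 3.41 to 23.9 ± 2.18 CPM at 5 µM and fell by 1.07 ± 0.07 on the log2 scale (adjusted p = 3.61e-15). PTCD2, a pentatricopeptide repeat protein, fell by 1.10 ± 0.08 (adjusted p = 7.73e-14). MTPAP, the poly-A polymerase of mitochondria, was at 44.7 ± 3.35, 49.9 ± 3.67 and 28.02 ± 1.12 CPM in the 3 groups and fell by 0.67 ± 0.07 at 5 µM (adjusted p = 1.86e-10). Its small rise at 2.5 µM (log2 0.16 ± 0.07, adjusted p = 0.044) was lost in 10 of 12 fits that left out a library, at adjusted p values up to 0.255, and with DESeq2 (adjusted p = 0.0738), RLE scaling (0.0535), upper quartile scaling (0.0553), no filter (0.0521) and the stricter filter (0.0567).

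The 9 upstream regulators did not move together, with 3 higher and 6 lower at 5 µM (median -0.27) and 3 higher, 2 lower and 4 not called at 2.5 µM (median 0.09). PPARGC1A, the coactivator known for driving mitochondrial biogenesis, was at 11.1 ± 0.594, 24.4 ± 2.13 and 18.9 ± 0.947 CPM in the 3 groups. It rose by log2 1.13 ± 0.09 at 2.5 µM (adjusted p = 4.68e-13) and 0.77 ± 0.09 at 5 µM (adjusted p = 2.86e-09), so that its peak was at the lower dose. Its relatives PPARGC1B and PPRC1 fell at 5 µM, by 1.31 ± 0.08 (adjusted p = 3.43e-16) and 0.52 ± 0.05 (adjusted p = 5.4e-11). The subunits of GABP parted. GABPB1 went from 54.5 ± 3.97 to 25.3 ± 2.16 and 14.1 ± 0.962 CPM and fell by 1.94 ± 0.08 at 5 µM (adjusted p = 3.54e-21), whereas GABPA, the DNA-binding subunit, rose by log2 0.48 ± 0.10 (adjusted p = 4.03e-05).

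NRF1 was at 21.5 ± 2.77, 24.8 ± 0.733 and 17.8 ± 0.699 CPM in the 3 groups. It was higher at 2.5 µM (log2 0.21 ± 0.08, adjusted p = 0.0251) and lower at 5 µM (log2 -0.27 ± 0.09, adjusted p = 0.00509). The call at 2.5 µM was lost without control replicate 1 (adjusted p = 0.145), control replicate 2 (adjusted p = 0.0934) or 2.5 µM replicate 4 (adjusted p = 0.0807) and with DESeq2 (adjusted p = 0.0551), and that at 5 µM with scaling by library totals (adjusted p = 0.144). CREB1 fell by 0.93 ± 0.10 on the log2 scale at 5 µM (adjusted p = 4.59e-10), and YY1 rose by log2 0.24 ± 0.04 (adjusted p = 7.36e-06). ESRRA, an orphan nuclear receptor, fell by 0.20 ± 0.08 at 5 µM (adjusted p = 0.0202), a call lost without control replicate 3 (adjusted p = 0.107), 5 µM replicate 2 (adjusted p = 0.0611) or 5 µM replicate 4 (adjusted p = 0.0503). It was also lost with DESeq2 (adjusted p = 0.0737), upper quartile scaling (adjusted p = 0.0749) and scaling by library totals (log2 -0.06, adjusted p = 0.453).

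The matrix proteases, of which LONP1 is known to degrade TFAM, all fell at 5 µM. LONP1 was at 331 ± 25.1, 224 ± 9.60 and 236 ± 5.64 CPM in the 3 groups and fell by 0.56 ± 0.05 at 2.5 µM (adjusted p = 6.08e-12) and by 0.49 ± 0.05 at 5 µM (adjusted p = 5.71e-11). CLPP fell by 0.31 ± 0.06 (adjusted p = 3.71e-05) and CLPX, its unfoldase, by 0.18 ± 0.05 (adjusted p = 0.00376), the latter not called with scaling by library totals (log2 -0.04, adjusted p = 0.484). At 2.5 µM CLPX was instead higher (log2 0.14 ± 0.05, adjusted p = 0.028), a call lost without control replicate 3 (adjusted p = 0.214), control replicate 4 (adjusted p = 0.0655), 2.5 µM replicate 2 (adjusted p = 0.0756) or 2.5 µM replicate 4 (adjusted p = 0.134).

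**Figure D4:**
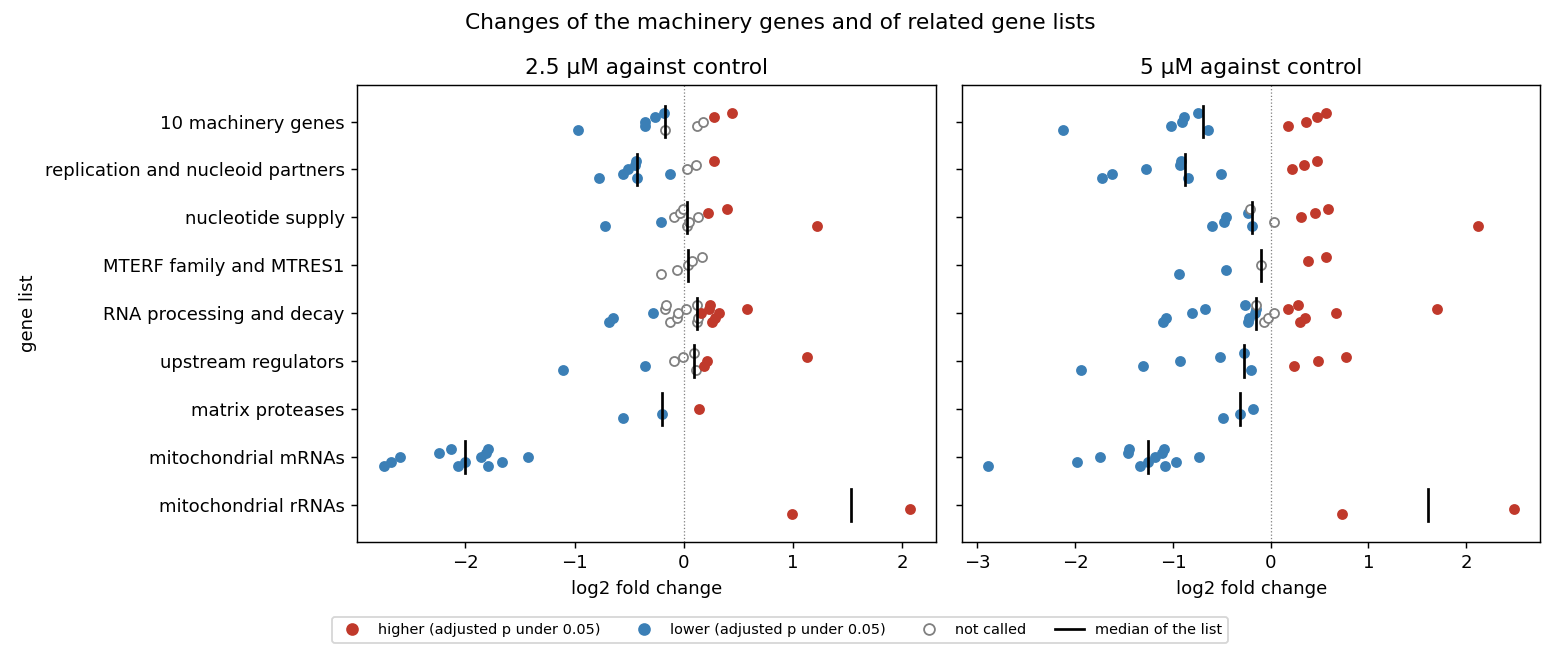
Log2 fold change of each gene of the machinery and of 8 related lists at 2.5 µM (left) and 5 µM (right) against the same controls, red for called higher, blue for called lower, open for not called, with a bar at the median of each list. The mitochondrial mRNAs lie left of 0 at both doses and the 2 rRNAs right of 0, while the nuclear lists hold genes on both sides, except the 3 matrix proteases at 5 µM.

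The RNAs that this machinery makes are given for reference, as measured in poly-A selected RNA. All 13 mitochondrially encoded mRNAs were lower at 2.5 µM (median log2 -2.0) and at 5 µM (median -1.25), and 12 of them were higher at 5 µM than at 2.5 µM (median 0.71). Their summed level was 25430 ± 430 CPM in the controls, 6601 ± 532 at 2.5 µM and 10080 ± 644 at 5 µM, with no overlap between groups. The lower dose had the lowest mRNA sum, while POLRMT, POLG, POLG2, SSBP1, LRPPRC and TOP1MT were lowest at 5 µM. MT-CO2 went from 3586 ± 99.0 to 757 ± 75.8 and 1315 ± 43.8 CPM (log2 -2.24 ± 0.05 and -1.45 ± 0.05, adjusted p = 5.49e-26 and 5.69e-22). MT-ND4L had log2 fold changes of -1.86 ± 0.05 and -1.46 ± 0.05 (adjusted p = 5.49e-26 and 5.62e-24). MT-ND6, which unlike the others is transcribed from the light-strand promoter, was the 1 that kept falling, from 29.6 ± 2.92 to 8.43 ± 0.492 and 4.04 ± 0.714 CPM (log2 -2.89 ± 0.11 at 5 µM, adjusted p = 8.01e-22). The 2 rRNAs moved the other way, with a sum of 11160 ± 1591 CPM in the controls, 23800 ± 3095 at 2.5 µM and 21360 ± 2197 at 5 µM. MT-RNR1 was higher by log2 2.49 ± 0.15 at 5 µM (adjusted p = 8e-08) and MT-RNR2 by 0.73 ± 0.12 (adjusted p = 0.000208). The strand setting of the counting is not given, and how it or the poly-A selection bears on MT-ND6 and the rRNAs was not tested.

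**Figure D5:**
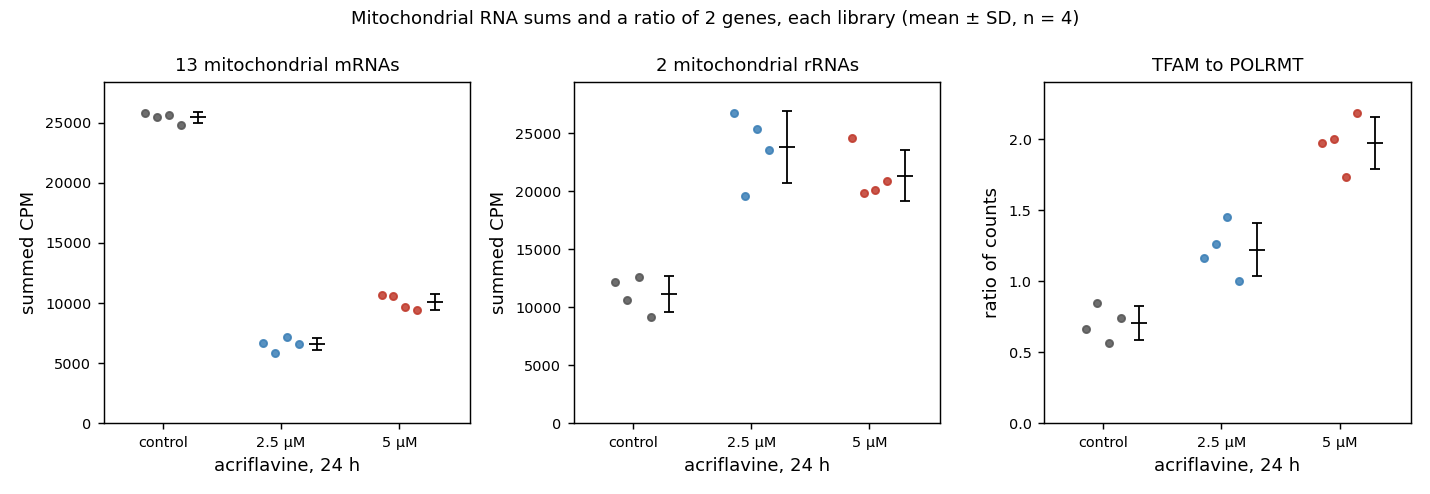
Summed level of the 13 mitochondrial mRNAs and of the 2 mitochondrial rRNAs in CPM, and the ratio of TFAM to POLRMT counts, in each of the 12 libraries with the mean ± SD of 4 (linear axes from 0). The mRNA sum is lowest at 2.5 µM and the rRNA sum is above every control at both doses, while the ratio rises with dose from 0.706 to 1.97.

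The genes with the pattern most like a member over the 12 libraries were found by the root mean square difference of log2 CPM centred on the controls. For TFAM they were IFNAR1 (0.064), CCDC43 (0.077) and UBE2E1 (0.08). For POLRMT they were PHB2 (0.045), a prohibitin of the inner mitochondrial membrane, UNC13D (0.056) and ITPR3 (0.059). For POLG they were RUSF1 (0.054), NDUFS8 (0.056), a subunit of respiratory complex I, and PNPLA2 (0.06), a triglyceride lipase. PHB2, the closest of the 9, went from 415 ± 27.2 to 329 ± 16.7 and 210 ± 7.03 CPM, with a log2 fold change of -0.98 at 5 µM beside -1.02 for POLRMT.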

How the data were processed

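The 12 libraries were made from poly-A RNA with a strand-marking kit, per the labels' protocols. The authors deposited 1 table of whole-number read counts per Ensembl gene, not normalized. Per the submitters' processing notes, which give no roles or order, the build was GRCh37 and the tools included STAR 2.4.1d and featureCounts 1.4.6. No source used here states the strand setting or the annotation behind the counts. The table held 63152 genes, and 51662 had a symbol in the gene name table supplied, with 99.2% of the counts.

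Testing used edgeR 4.0.16 (R 4.3.3, TMM, filterByExpr, robust quasi-likelihood fit) in a single fit of the 3 groups with 9 residual degrees of freedom. Benjamini-Hochberg adjustment ran over 16839 genes, with a threshold of 0.05. The SE is the absolute log2 fold change over the root of F. Among 66 pairs of libraries 0 were identical. The labels call the libraries biological replicates without saying how the cultures were kept apart, so the p-values measure the spread between these samples. They name no batch. The procedure was also run on simulated data in which few genes changed, unlike here, so that run does not test the scaling of these data.

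The 10 genes, the related lists and the rule for naming were chosen with earlier results of these data known. The rule names all 10 genes, every upstream regulator, the 3 genes of each related list with the smallest p at 5 µM, and the 3 genes most like each of TFAM, POLRMT and POLG. Exon lengths came from GENCODE 29 (GRCh38), so no gene coordinates in the build of the counts are given. A further hepatocyte marker was taken off the list and is not reported here.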

Additional observations from a re-analysis of the deposited data

Results flagged for a closer look

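Among 117 groups of 4 libraries (39 genes in 3 groups), 3 held a library that stood apart from the other 3 by more than Dixon's 95% limit for 4 values, and chance flags about 1 in 20 such groups. All 3 were at 5 µM and none was a member of the machinery. MPV17 was at 80.87 CPM in 5 µM replicate 4, below 85.64 to 86.25 CPM in the others. MTERF3 was at 12.45 CPM in 5 µM replicate 3, above 11.23 to 11.42 CPM. MTPAP was at 29.68 CPM in 5 µM replicate 4, above 27.35 to 27.65 CPM. Each of these deviations is small beside the difference of that gene between 5 µM and control.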

How the results depend on the processing

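The calls of the 10 genes were recomputed under 22 alternatives: 3 other scalings, no filter on low counts and a stricter one, DESeq2, the 2 compared groups alone, the replicate block, mitochondrially encoded genes left out, pseudogene copies summed (chosen after seeing the data), and each library left out. Of the member results 834 kept direction and side of the threshold, 6 passed it in addition, 12 lost it and 18 changed sign. For members called higher, library size scaling gave 4 at 2.5 µM against control in place of 2 (TFB1M log2 0.22, adjusted p = 0.0155, and TFB2M log2 0.17, adjusted p = 0.0421), and leaving out the filter gave 1 at 5 µM against 2.5 µM in place of 2, with a range of 1 to 2 when single libraries were left out. All sign changes among the 10 were of differences that did not pass the threshold. The step difference of POLG turned to 0.0045 with RLE scaling, 0.004 with library size scaling and 0.0184 with upper quartile scaling, and ran from -0.1341 to 0.031 without single libraries. Without the filter that of TEFM was -0.0099 and that of TFB1M -0.0132, and without single libraries they ran from -0.0476 to 0.0485 and from -0.0607 to 0.0793. Without single libraries that of TOP1MT ran from -0.3547 to 0.0122, turning without 2.5 µM replicate 1, and the difference of TFAM between the doses ran from -0.0143 to 0.0925, turning without 2.5 µM replicate 4. Among related genes at 2.5 µM, ESRRA turned to 0.0384 with library size scaling and 0.0035 with the 2 groups alone. Without single libraries ESRRA ran from -0.0694 to 0.0708, GABPA from -0.0093 to 0.1427 and MTERF3 from -0.1135 to 0.0163.

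No pairing of the cultures by replicate number was seen. Over 12 same-numbered pairs the correlation of deviations ran from -0.13 to 0.074. In both other groups 0 libraries correlated best with their own number. These values cannot show that the cultures were unpaired, since the labels do not say how they were set up. With the replicate block no call of a member changed. In the block fit MT-RNR2 passed at 5 µM against 2.5 µM (-0.26, adjusted p = 0.0013) and MTPAP at 2.5 µM did not (0.16, adjusted p = 0.0535). 

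With the longest transcript as length, control levels in CPM per kilobase were 66.21 for LRPPRC, 50.39 for SSBP1, 30.38 for POLG, 19.23 for POLRMT, 15.67 for TFB1M, 14.56 for TOP1MT, 8.309 for POLG2 and 5.842 for TEFM. At 78 reads in the library with the fewest, counting error adds to the spread of POLG2 and TOP1MT most.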
